A study of Mus musculus with 4 samples.

Results

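Interferon-responding CD8 T cells are tumour-infiltrating T cells that carry many transcripts of the genes induced by type I interferon. They were chosen from single-cell RNA counts as barcodes with at least 1 UMI (unique molecular identifier, a counted transcript molecule) of Cd3d, Cd3e or Cd3g, at least 1 UMI of Cd8a or Cd8b1 and at least 5 UMIs of Ifit1, Ifit3 and Rsad2 summed. Of 37151 barcodes that passed the filters on quality, 35174 had CD3 and CD8 UMIs, and 4391 of those were interferon-responding (called responding cells here). They numbered 1220 of 8153 CD3 and CD8 positive cells in the KO library, 1461 of 8966 in WT, 830 of 8252 in Aged and 880 of 9803 in Young. They were set against the 26071 CD3 and CD8 positive cells of the same libraries with 0 or 1 UMI of the 3 genes (comparison cells), and the 4712 cells with 2 to 4 UMIs stayed out of that comparison.

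The 4 libraries each held CD45+ CD8+ cells sorted from MB49 tumours (a mouse bladder carcinoma line) of 3 pooled mice after enzymatic dissociation. KO tumours grew under the skin of BFAR-CD8-KO mice, in which Bfar was deleted in CD8 T cells, and WT tumours in wild-type mice, both on the C57BL/6Slac strain at 10 to 12 weeks of age; the labels do not give the driver of the deletion or the deleted exons. Aged and Young tumours grew in Rag1-mutant hosts of 8 to 10 weeks, which lack their own T and B cells (strain given as B6.129S7-Rag1tm1Mom/J for Aged and B6.129S7-Rag1tm0Mom/J for Young). Those hosts received CD8+ T cells intravenously from donors aged 18 months (Aged) or 8 weeks (Young) on the day of tumour inoculation. KO and WT libraries were made with a 3′ kit and Aged and Young libraries with an immune profiling kit, so that levels are compared only within a pair, and each group is 1 library, so that no test between groups is possible.

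Deposited UMIs came to 72752583 in KO and 85401443 in WT, 70727987 in Aged and 68017515 in Young. Responding cells were slightly deeper than comparison cells: their median UMI total was 7034 in KO and 6428 in WT, 6020.5 in Aged and 5031.5 in Young, against 6828 in KO and 6309.5 in WT, 5827.5 in Aged and 4426 in Young comparison cells. The Aged and Young libraries shared 114 cell barcodes, KO and WT shared 16, and every other pair of libraries shared at most 1. Bfar itself, in counts per 1000000 UMIs (CPM) summed over responding cells, was at 20.8 CPM in KO against 31.7 CPM in WT, and at 29.2 CPM in Aged against 20.8 CPM in Young. Within its pair the KO library thus held less Bfar, with transcripts still counted.

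Type I interferons bind the receptor IFNAR1/IFNAR2 on nearly every cell, the kinases JAK1 and TYK2 phosphorylate STAT proteins, and these join IRF9 in a complex that binds the interferon-stimulated response element of its target genes. The induced proteins bind or degrade foreign nucleic acids, conjugate the ubiquitin-like protein ISG15, and raise antigen presentation, while USP18 and SOCS1 damp the receptor. In tumours, type I interferon acts on T cells as well as on the cells that prime them, and both activating and inhibitory outcomes are known.

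The upstream sequences of the 3 genes used to choose the cells, and of Isg15, are shown because each holds the core of that response element. RefSeq promoters (build GRCm38.p6) were searched over the 250 bases before the transcription start for 2 copies of GAAA separated by any 2 bases, or 2 copies of TTTC so separated on the other strand, with overlapping matches counted. Each line reads 5′ to 3′ on the gene's strand, and capitals mark the matches. Ifit1 (chr19:34640639-34640888, plus strand) held 2 matches that began 104 and 85 bases before the start, and Ifit3 (chr19:34583279-34583528, plus strand) held 2 at 156 and 122 bases. Rsad2 (chr12:26456453-26456702, minus strand) held 1 at 120 bases, and Isg15 (chr4:156200819-156201068, minus strand) held 3 overlapping matches that began between 78 and 66 bases before the start.
Ifit1: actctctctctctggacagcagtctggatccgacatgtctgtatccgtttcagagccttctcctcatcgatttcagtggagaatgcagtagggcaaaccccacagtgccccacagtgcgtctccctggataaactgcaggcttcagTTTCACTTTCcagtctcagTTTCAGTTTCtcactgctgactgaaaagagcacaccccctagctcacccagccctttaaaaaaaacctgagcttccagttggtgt
Ifit3: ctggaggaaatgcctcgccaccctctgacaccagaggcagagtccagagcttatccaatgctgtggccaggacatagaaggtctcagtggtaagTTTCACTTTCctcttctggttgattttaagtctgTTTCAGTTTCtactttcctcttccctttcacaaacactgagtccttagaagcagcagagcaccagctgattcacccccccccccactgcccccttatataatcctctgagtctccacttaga
Rsad2: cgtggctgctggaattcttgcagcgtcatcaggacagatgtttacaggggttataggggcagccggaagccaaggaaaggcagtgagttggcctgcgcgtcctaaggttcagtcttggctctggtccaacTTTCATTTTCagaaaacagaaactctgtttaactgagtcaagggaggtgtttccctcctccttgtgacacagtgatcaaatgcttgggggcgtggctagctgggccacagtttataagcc
Isg15: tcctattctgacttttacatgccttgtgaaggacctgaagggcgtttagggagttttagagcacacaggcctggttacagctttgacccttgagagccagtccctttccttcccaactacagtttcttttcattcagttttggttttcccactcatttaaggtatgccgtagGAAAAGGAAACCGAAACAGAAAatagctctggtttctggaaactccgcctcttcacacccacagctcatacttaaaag

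The motif stood in 936 of 27025 RefSeq promoters (3.46%) and in 223 of the 6120 tested genes that matched a promoter by symbol (3.64%). Among genes called higher in responding cells by the test described below it stood in 74 of 644 (11.5%), and among those called lower in 8 of 388 (2.06%). These shares are descriptions: a match is not a bound site, and a promoter without one may hold another form of the element, as may Cmpk2 and Ifi44, which had no match in this window. In the cells left after removal of barcodes with markers of other cell types (purified cells, defined below), 86 of 871 genes called higher held it (9.87%). The share over the genes tested there was 212 of 5907 (3.59%). At the stricter limit of at least 2-fold higher in purified cells, 44 of 145 genes held it (30.3%).

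The 3 genes used by the rule are given as a description. Ifit1, whose protein binds RNA that lacks the host cap methylation, was at 762 CPM in KO and 589 in WT, 449.9 in Aged and 403 in Young responding cells, against 7.05 CPM in KO and 8.66 in WT, 7.95 in Aged and 9.13 in Young comparison cells. Its partner Ifit3 was at 641 CPM in KO and 544 in WT, 797 in Aged and 742 in Young responding cells, against 8.24 CPM in KO and 9.66 in WT, 17.1 in Aged and 23.97 in Young comparison cells. Rsad2, which encodes viperin, an enzyme that makes a chain-terminating nucleotide, was at 357 CPM in KO and 329.8 in WT, 297 in Aged and 369.7 in Young responding cells, against 3.04 CPM in KO and 4.56 in WT, 4.89 in Aged and 7.43 in Young comparison cells. Ifit1 was the larger contributor in KO and WT and Ifit3 in Aged and Young. All 3 transcripts were detected together in 66.4% of KO and 66.9% of WT, 60.4% of Aged and 66.02% of Young responding cells, so that most of these cells were chosen on more than 1 gene.

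Responding cells were most numerous in the class just above the limit. The class with 5 to 9 UMIs held 6.28% of CD3 and CD8 positive cells in KO and 7.29% in WT, 5.63% in Aged and 5.11% in Young. The class with at least 20 UMIs held 3.99% in KO and 3.60% in WT, 1.31% in Aged and 1.13% in Young. Just inside the limit, at exactly 5 UMIs, Isg15 was at 433 CPM in KO and 504 in WT, 765 in Aged and 885 in Young, and just outside, at exactly 4 UMIs, it was at 291 CPM in KO and 457 in WT, 661 in Aged and 742 in Young. Ifit2 was at 45.7 CPM in KO and 44.3 in WT, 53.8 in Aged and 44.3 in Young at 5 UMIs, and at 27.0 CPM in KO and 35.7 in WT, 48.0 in Aged and 43.3 in Young at 4 UMIs. The limit cuts across a continuous range of UMIs.

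**Figure D1:**
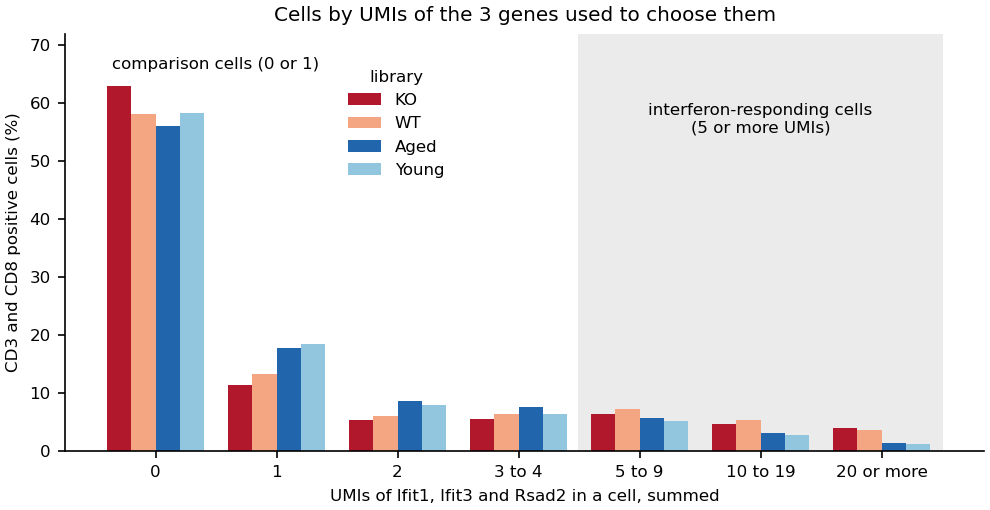
Share of CD3 and CD8 positive cells (y axis, percent) by their summed UMIs of Ifit1, Ifit3 and Rsad2 (x axis, classes), with 1 bar per library and no error bars. The class with 0 UMIs is the largest in every library, and 3.99% of KO and 3.60% of WT, 1.31% of Aged and 1.13% of Young cells had at least 20 UMIs.

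The responding cells carried T cell transcripts and, in part, transcripts of other cells. The 8 markers of CD8 T cells summed to 6710.4 CPM in KO and 6472 in WT, 4957 in Aged and 4188 in Young responding cells, against 7325 CPM in KO and 7619 in WT, 5567 in Aged and 5178 in Young comparison cells, and none was at 0. The 10 dendritic cell markers, which include MHC class II genes, summed to 441 CPM in KO and 699 in WT, 1823 in Aged and 5629 in Young responding cells, against 197 CPM in KO and 147 in WT, 680.3 in Aged and 3300.0 in Young comparison cells. The 7 plasmacytoid dendritic cell markers, which include the interferon-induced Bst2, summed to 1104 CPM in KO and 1212 in WT, 1041 in Aged and 1229.7 in Young responding cells, against 488 CPM in KO and 506 in WT, 629.7 in Aged and 627 in Young comparison cells. Of these 7, 2 were higher in responding cells in KO and 2 in WT, 5 in Aged and 3 in Young, and Siglech was at 0 in KO and WT responding cells and not in Aged or Young. The 6 B cell markers summed to at most 4.69 CPM. The 6 keratin and epithelial markers, which MB49 cells can express, summed to 245 CPM in KO and 886 in WT, 246 in Aged and 870.2 in Young responding cells, against 80.2 CPM in KO and 169.9 in WT, 11.4 in Aged and 76.3 in Young comparison cells, with Krt5 at 0 in the responding cells of each library. The 6 fibroblast markers summed to 52.2 CPM in KO and 581 in WT, 76.7 in Aged and 122 in Young responding cells, against 14.2 CPM in KO and 60.1 in WT, 1.78 in Aged and 7.70 in Young comparison cells, and Lum was at 0 in KO, Aged and Young responding cells. The 10 macrophage markers summed to 29.0 CPM in KO and 146 in WT, 194 in Aged and 224 in Young responding cells, against 28.6 CPM in KO and 33.7 in WT, 54.1 in Aged and 99.1 in Young comparison cells, with Adgre1 at 0 in KO responding cells. In WT, Aged and Young all 10 macrophage markers were higher in responding cells, and in KO 6 were.

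For that reason each comparison was repeated on purified cells, a setting chosen after these values were seen: cells with at least 2 UMIs of macrophage, neutrophil, B cell, NK cell, mast cell, fibroblast, tumour or erythroid markers, or at least 10 UMIs of dendritic cell markers, were removed, with markers that also stand in a gene list not counted. This removed 4.43% of responding cells in KO and 8.08% in WT, 10.5% in Aged and 17.4% in Young, against 3.45% in KO and 5.52% in WT, 7.59% in Aged and 9.11% in Young comparison cells. Values for all cells come first below, with the purified value beside them.

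Antiviral effectors, nucleic acid sensors, the ISG15 system, DNA-binding PYHIN proteins and the interferon-inducible GTPases rose in nearly all their tested genes, together with genes of tumour and myeloid cells described next, whereas no gene of the receptor and kinase list and none of the naive and memory list passed the test with all cells. UMIs were summed over the responding and over the comparison cells of each library, and the 8 sums were compared with edgeR's quasi-likelihood test, with the library as a block, over 7613 genes with a mean of at least 10 CPM. At a Benjamini-Hochberg adjusted p under 0.05, 813 genes were higher (10.7%) and 489 lower (6.42%), and 320 of the higher genes rose at least 2-fold. In purified cells, 1099 of 7331 genes were higher (15%) and 1184 lower (16.2%). Another scaling moved the balance of calls, to 791 higher and 688 lower with the size factors of DESeq2. Without the KO library 735 genes were higher and 188 lower, without WT 485 and 123, without Aged 660 and 261, and without Young 569 and 119. The 3 genes of the rule belong to the same response as many of the lists below, so that the counts of those lists describe what accompanied the 3 genes and are no independent evidence of that response. The 4 libraries are 4 different groups, so the test asks only whether a difference within a library recurred in all 4, and with 1 library per group the spread between mice of a group was not measured.

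Of 7279 genes tested in both settings, 900 were called in both, 888 of them in the same direction, 218 only with all cells and 1374 only in purified cells. The plot of the fold changes in both settings shows where they differ: a group of genes that rose with all cells lay near 0 in purified cells. Of the 20 largest rises with all cells (mean of at least 20 CPM, higher in 4 of 4 libraries), 13 lay under the level filter once the barcodes with other cells' markers were removed. These were Sprr1a, Fgb, Thbs1, Fgg, Ptgs2, Ccl9, Wfdc2, Ly6c1, Cxcl2, Serpinh1, Trf, Sox9 and Rhox5. Fgb, which encodes a fibrinogen chain made by liver and some carcinomas, was at 427 CPM in KO and 1117 in WT, 459 in Aged and 814 in Young responding cells, against 27.4 CPM in KO and 157 in WT, 7.03 in Aged and 31.4 in Young comparison cells. The 7 that remained were Ifit3b, Cxcl10, Ifi204, Slfn5, Cmpk2, Ifit2 and Oasl1, all called higher there too.

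**Figure D2:**
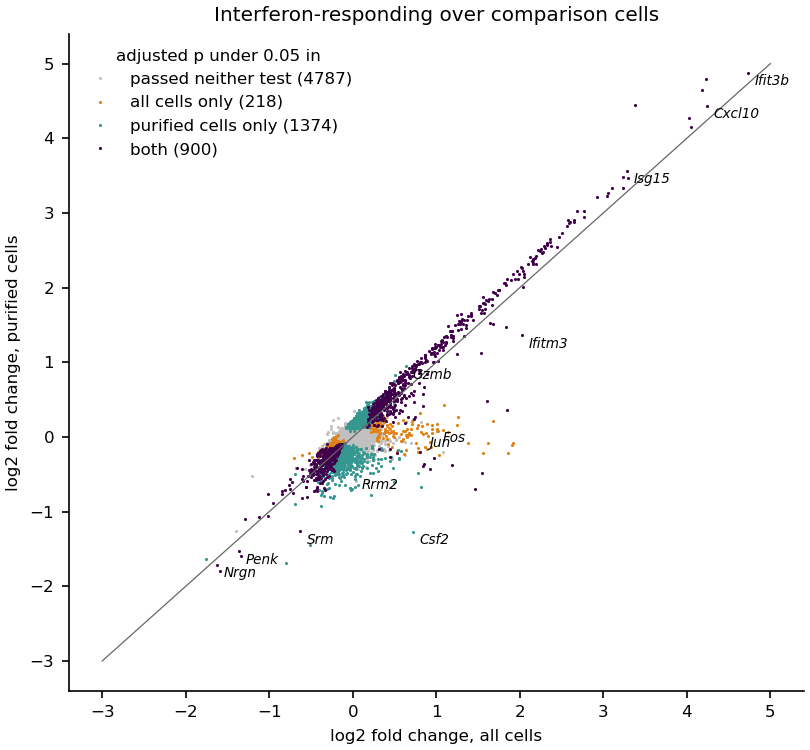
Log2 fold change of responding over comparison cells in purified cells (y axis) against all cells (x axis) for 7279 genes tested in both, coloured by the setting in which the adjusted p was under 0.05, with the line of equal values. Ifit3b, Cxcl10 and Isg15 lie high in both, while Fos and Jun were called with all cells only and Rrm2 and Csf2 in purified cells only.

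Of 30 listed antiviral effector genes (the IFIT, MX and other families, with Mx1 and Mx2 not used here), 27 were tested, 26 rose and none fell, with a median log2 fold change of 1.92 (2.18 in purified cells), against -0.022 over all genes tested. Ifit3b, a near copy of Ifit3 whose reads could be split between them, was at 138 CPM in KO and 109.5 in WT, 174 in Aged and 167 in Young responding cells, against 2.94 CPM in KO and 3.75 in WT, 7.46 in Aged and 10.2 in Young comparison cells. The fitted log2 fold change was 4.73 ± 0.25 (SE, 8 sums; edgeR adjusted p = 6.72e-05). Ifit2, which binds RNA and restricts viral translation, was at 129 CPM in KO and 123 in WT, 147 in Aged and 125 in Young responding cells, against 5.93 CPM in KO and 7.44 in WT, 9.77 in Aged and 10.0 in Young comparison cells. The groups did not overlap in either gene: the lowest responding sum lay above the highest comparison sum. Ifit2 gave 4.02 ± 0.14 (SE, 8 sums; edgeR adjusted p = 1.78e-05) on the log2 scale.

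Cmpk2, a mitochondrial nucleotide kinase that lies beside Rsad2 on chromosome 12, was at 75.5 CPM in KO and 75.4 in WT, 137 in Aged and 159.6 in Young responding cells, against 3.52 CPM in KO and 4.02 in WT, 9.55 in Aged and 12.3 in Young comparison cells. Its log2 fold change was 4.05 ± 0.14 (SE, 8 sums; edgeR adjusted p = 1.78e-05). The growth regulator Slfn5 was at 315 CPM in KO and 231 in WT, 54.3 in Aged and 93.9 in Young responding cells, against 12.7 CPM in KO and 12.8 in WT, 3.19 in Aged and 7.36 in Young comparison cells, and its log2 fold change was 4.18 ± 0.16 (SE, 8 sums; edgeR adjusted p = 3.09e-05). Both genes were higher in the responding cells of each library, with no overlap. Ifit1bl1 rose by 3.10 on the log2 scale (3.33 in purified cells), and it belongs to the same chromosome 19 cluster as Ifit1, Ifit2, Ifit3 and Ifit3b. Ifi44 rose by 3.23, Daxx, a histone chaperone of nuclear bodies, by 2.65, Isg20, an RNA exonuclease, by 2.16, Samhd1, which degrades deoxynucleotides, by 2.02 and Bst2, which tethers budding virions, by 1.67, all on the log2 scale. Trim5 was the exception, at a log2 fold change of 0.11 ± 0.11 (SE, 8 sums; edgeR adjusted p = 0.536).

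None of the 7 receptor and kinase genes passed the test with all cells, and their median log2 fold change was 0.070. In purified cells 4 of 6 rose, with a median of 0.20. Ifnar1, a chain of the type I receptor, was at 104 CPM in KO and 94.6 in WT, 117 in Aged and 97.7 in Young responding cells, against 107 CPM in KO and 101 in WT, 92.7 in Aged and 97.0 in Young comparison cells, and the samples overlapped. Ifngr2, a chain of the interferon gamma receptor, had the highest value of the list at 0.74 ± 0.21 (SE, 8 sums; edgeR adjusted p = 0.0542) on the log2 scale. Ifngr1 had the lowest at -0.069 ± 0.060 (SE, 8 sums; edgeR adjusted p = 0.467), but in purified cells it rose by 0.12.

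Of 10 tested interferon transcription factors, 7 rose and 1 fell, with a median log2 fold change of 0.65. Stat2 was at 67.6 CPM in KO and 78.1 in WT, 92.6 in Aged and 73.0 in Young responding cells, against 13.5 CPM in KO and 15.3 in WT, 22.6 in Aged and 18.7 in Young comparison cells, and gave 2.19 ± 0.089 (SE, 8 sums; edgeR adjusted p = 3.17e-05) on the log2 scale. Its partner Irf9, which contacts the DNA of the response element, gave 1.06 ± 0.10 (SE, 8 sums; edgeR adjusted p = 0.000802), so that both rose and Irf9 by less. Irf7, which amplifies interferon transcription, was at 371 CPM in KO and 368 in WT, 663 in Aged and 700.2 in Young responding cells, against 64.0 CPM in KO and 76.5 in WT, 198 in Aged and 239 in Young comparison cells. Its log2 fold change was 2.04 ± 0.17 (SE, 8 sums; edgeR adjusted p = 0.000477). Irf8, better known in myeloid cells and also induced when T cells are activated, was at 67.6 CPM in KO and 63.2 in WT, 99.1 in Aged and 109.8 in Young responding cells, against 89.9 CPM in KO and 85.9 in WT, 168 in Aged and 124 in Young comparison cells, and it fell by 0.43 on the log2 scale (edgeR adjusted p = 0.0244). It was the only gene of the 12 interferon lists that was called lower, in all cells and in purified cells alike.

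The feedback regulators divided: 6 of 8 rose, with a median log2 fold change of 1.23. Usp18, which removes ISG15 from proteins and blocks signalling at IFNAR2, was at 99.7 CPM in KO and 95.6 in WT, 263 in Aged and 183 in Young responding cells, against 5.29 CPM in KO and 7.94 in WT, 45.0 in Aged and 24.6 in Young comparison cells. Its log2 fold change was 3.29 ± 0.28 (SE, 8 sums; edgeR adjusted p = 0.000488). Socs1, an inhibitor of JAK kinases, rose by 0.63 and Socs3 by 0.56. Ptpn2, a phosphatase of JAK kinases and STAT proteins, had the lowest value of the list: its level was 60.6 to 77.6 CPM over the 4 libraries' responding cells, against 66.1 to 79.4 CPM in their comparison cells, and its log2 fold change had an edgeR adjusted p of 0.983.

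Of 13 tested genes for RNA and DNA sensors, 12 rose and none fell, with a median log2 fold change of 2.20 (2.42 in purified cells). Ifih1, which encodes the long double-stranded RNA sensor MDA5, was at 117 CPM in KO and 124 in WT, 218 in Aged and 159.7 in Young responding cells, against 13.2 CPM in KO and 13.4 in WT, 27.2 in Aged and 23 in Young comparison cells. Its log2 fold change was 3.06 ± 0.089 (SE, 8 sums; edgeR adjusted p = 1.78e-05). Ddx58, which encodes RIG-I, rose by 2.28 and their regulator Dhx58 by 2.77. Zbp1, a sensor of Z-form nucleic acids, was at 596 CPM in KO and 535 in WT, 509.9 in Aged and 476 in Young responding cells, against 93.6 CPM in KO and 105 in WT, 142 in Aged and 132 in Young comparison cells, and rose by 2.20 on the log2 scale. Eif2ak2, the kinase PKR, rose by 2.16. The 3 genes Oasl1, Oasl2 and Oas3 of the 2′-5′-oligoadenylate synthetase family, whose close copies may share reads, rose by 3.37, 3.24 and 2.47. Oasl1 was the highest of the list, and Cgas, the cytosolic DNA sensor, the lowest at 0.19 ± 0.11 (SE, 8 sums; edgeR adjusted p = 0.286).

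All 6 genes of ISG15 conjugation rose, with a median log2 fold change of 2.33. Isg15 itself, which the rule did not use, was at 778 CPM in KO and 914 in WT, 1388 in Aged and 1403 in Young responding cells, against 59.2 CPM in KO and 93.2 in WT, 156 in Aged and 187 in Young comparison cells. Its log2 fold change was 3.28 ± 0.14 (SE, 8 sums; edgeR adjusted p = 3.28e-05). Its activating enzyme Uba7 rose by 1.36, its conjugating enzyme Ube2l6 by 2.36 and its mouse ligase Herc6 by 2.30. After each cell was thinned to 2000 UMIs, Isg15 was detected in 70.3% of KO and 75% of WT, 81.8% of Aged and 85.0% of Young responding cells, against 9.87% of KO and 13.7% of WT, 24.3% of Aged and 26.7% of Young comparison cells. In barcodes with neither CD3 nor CD8 UMIs, which can be other cells that express Isg15, the thinned share was 24.1% in KO and 27.8% in WT, 55.1% in Aged and 33.5% in Young, so that responding cells lay above these barcodes and comparison cells below them.

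Of 8 genes for ADP-ribosyltransferases of the PARP family and their partner DTX3L, 7 rose, with a median log2 fold change of 1.82. Parp12 was the highest at 2.60 and Parp8, at 0.25, did not pass the test. The PYHIN genes, whose proteins bind DNA in the nucleus or cytosol and whose close copies may share reads, rose in 10 of 11 cases, with a median of 2.36. Ifi204 was at 119.9 CPM in KO and 124 in WT, 37.5 in Aged and 41.1 in Young responding cells, against 5.29 CPM in KO and 6.13 in WT, 1.78 in Aged and 3.55 in Young comparison cells, and it gave 4.23 ± 0.17 (SE, 8 sums; edgeR adjusted p = 3.09e-05). Aim2, the inflammasome sensor of DNA, was the exception at 0.17. All 8 genes of nuclear bodies and the PHF11 family rose, with a median of 2.17, among them Pml, the scaffold of nuclear bodies, by 2.32 and Phf11d by 3.80; Phf11d lay under the level filter in purified cells.

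All 16 tested guanylate-binding proteins and immunity-related GTPases, which act on the membranes around intracellular microbes, rose, with a median log2 fold change of 2.03 (2.19 in purified cells). Iigp1 was the highest: it was at 60.5 CPM in KO and 87.6 in WT, 50.5 in Aged and 40.6 in Young responding cells, against 9.62 CPM in KO and 11.6 in WT, 5.03 in Aged and 4.15 in Young comparison cells. Its log2 fold change was 3.04 ± 0.12 (SE, 8 sums; edgeR adjusted p = 3.09e-05). Gbp2 rose by 2.45, Irgm1 by 2.20, Gbp8 by 1.17 and Gvin1 by 1.17. Several of these genes are near copies, such as Tgtp1 and Tgtp2, between which reads may be split. Among 12 tested genes known mainly for interferon gamma, a list that shares genes with others here, 10 rose and Irf8 fell. Many of these genes respond to both types of interferon, which therefore cannot be told apart by them.

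Genes of MHC class I presentation rose by less: 16 of 18 were called, with a median log2 fold change of 0.43, and 18 of 18 in purified cells, with 0.57. Tapbp, which loads peptides, was the highest at 1.06 ± 0.050 (SE, 8 sums; edgeR adjusted p = 4.45e-05), the non-classical H2-T22 rose by 1.02 and the proteasome subunit Psmb10 by 0.76. B2m, the light chain, was at 4844 CPM in KO and 4745 in WT, 2866 in Aged and 2706 in Young responding cells, against 4061 CPM in KO and 4201 in WT, 2575 in Aged and 2663 in Young comparison cells, the lowest value of the list at 0.17 ± 0.047 (SE, 8 sums; edgeR adjusted p = 0.0522). Among the 4 tested IFITM genes, whose proteins block fusion at endosomal membranes, Ifitm3 rose by 2.03 (1.36 in purified cells), while Ifitm1 gave -0.21 ± 0.094 (SE, 8 sums; edgeR adjusted p = 0.181) and Ifitm2 0.11 ± 0.057 (SE, 8 sums; edgeR adjusted p = 0.253). All 4 LY6 genes rose with all cells, among them Ly6a (the surface antigen Sca-1) by 1.12, Ly6e by 0.56 and Ly6c2 by 0.55. Ly6c1, whose copies may share reads with Ly6c2, lay under the level filter in purified cells.

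**Figure D3:**
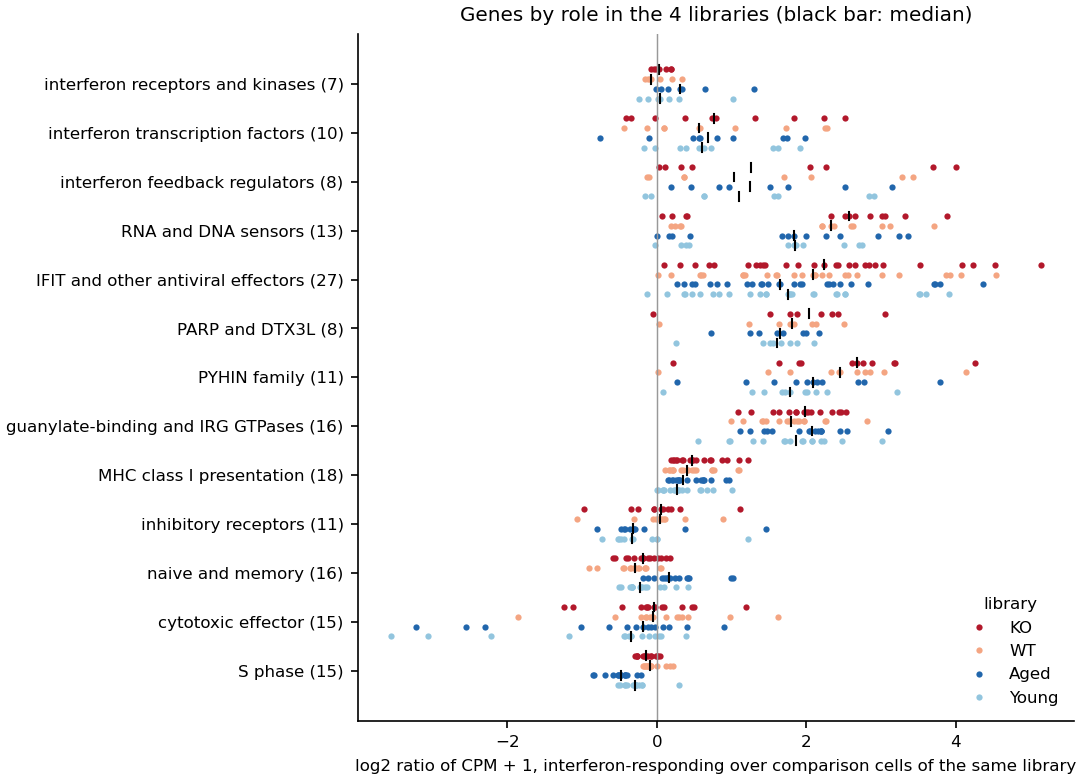
Log2 ratio of CPM + 1 in responding over comparison cells of the same library (x axis) for genes grouped by role (y axis, number of tested genes in brackets), with 1 point per gene and library and a black bar at each library's median. Library medians of the antiviral effectors are 2.23 in KO and 2.09 in WT, 1.64 in Aged and 1.76 in Young, whereas those of the inhibitory receptors are 0.056 in KO and 0.039 in WT, -0.31 in Aged and -0.33 in Young.

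Over the 12 interferon response lists together, 130 of 139 genes in the files were tested, 116 rose and 1 fell, against a background of 10.7% higher and 6.42% lower; in purified cells 117 of 126 rose and 1 fell. The median log2 fold change was 1.69 with all cells and 1.79 in purified cells. Library medians were higher in KO and WT than in Aged and Young for several roles, as the plot of genes by role shows for the sensors: 2.57 in KO and 2.33 in WT, 1.84 in Aged and 1.84 in Young. Kits, hosts and levels in the comparison cells differ between these pairs, so their parts cannot be told apart.

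Of 15 tested chemokines and cytokines, 5 rose and none fell with all cells, and 8 rose and 3 fell of 14 in purified cells. Cxcl10, the ligand of CXCR3 that draws T cells into inflamed tissue, was at 1067 CPM in KO and 786 in WT, 504 in Aged and 722 in Young responding cells, against 55.8 CPM in KO and 50.7 in WT, 19.5 in Aged and 44.9 in Young comparison cells. On the log2 scale this gave 4.24 ± 0.13 (SE, 8 sums; edgeR adjusted p = 1.78e-05). It was detected in 54.6% of KO and 50.7% of WT, 38.7% of Aged and 50% of Young responding cells, against 13.8% of KO and 12.8% of WT, 7.47% of Aged and 12.0% of Young comparison cells. Cxcl9, the related ligand, also rose by 3.32, but 83.3% to 98.2% of its UMIs lay in the 10 richest responding cells of a library, and in purified cells it lay under the level filter. Tnfsf10, which encodes the death ligand TRAIL, rose by 1.18 and the chemokine gene Ccl4 by 0.79. Ifng, an effector cytokine that CD8 T cells release, was at 182 CPM in KO and 153 in WT, 372 in Aged and 227 in Young responding cells, against 172 CPM in KO and 143 in WT, 309 in Aged and 222 in Young comparison cells, with overlapping samples and a log2 fold change of 0.13 ± 0.056 (SE, 8 sums; edgeR adjusted p = 0.155). Within each of the 4 libraries, however, Ifng was higher in responding than in comparison cells. With purified cells Ifng was called higher, by 0.34 on the log2 scale (edgeR adjusted p = 0.000918). The lowest value of the list was Ccl1, with -0.80 ± 0.23 (SE, 8 sums; edgeR adjusted p = 0.0621), and in purified cells it fell by 1.69.

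Of 11 tested inhibitory receptors and ligands, 1 rose and 1 fell, with a median log2 fold change of -0.10 (0.063 in purified cells). The gene that rose was Cd274, which encodes the ligand PD-L1 and is itself induced by interferon: it was at 93.7 CPM in KO and 86.1 in WT, 153 in Aged and 174 in Young responding cells, against 42.8 CPM in KO and 46.1 in WT, 54.7 in Aged and 74.0 in Young comparison cells, with 1.20 ± 0.092 (SE, 8 sums; edgeR adjusted p = 0.000302) on the log2 scale. The gene that fell was Cd160, a receptor for HVEM, with -0.85 ± 0.10 (SE, 8 sums; edgeR adjusted p = 0.00215). Pdcd1, which encodes PD-1, was at 333 CPM in KO and 293 in WT, 448 in Aged and 188 in Young responding cells, against 319.9 CPM in KO and 279 in WT, 504 in Aged and 255 in Young comparison cells. Its samples overlapped, and its log2 fold change was -0.10 ± 0.10 (SE, 8 sums; edgeR adjusted p = 0.506).

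Of 11 tested transcription factors of exhausted T cells, none rose and 2 fell: Tox, a driver of the exhausted state, with -0.52 ± 0.087 (SE, 8 sums; edgeR adjusted p = 0.0101), and Ikzf2, which encodes Helios, with -0.61 ± 0.15 (SE, 8 sums; edgeR adjusted p = 0.036). Both fell in purified cells too, and there Maf, Nfatc1 and Zbtb32 rose. None of 16 naive and memory genes passed the test with all cells; Id3 was the highest at 0.33 and Dapl1 the lowest at -0.42 on the log2 scale. In purified cells Il7r, Satb1 and Foxp1, 3 of the 16, rose by 0.13, 0.21 and 0.23, and Ccr7, a receptor for homing to lymph nodes, fell by 0.39. Tcf7, which maintains stem-like memory cells, was at 79.4 CPM in KO and 65.4 in WT, 91.4 in Aged and 94.0 in Young responding cells, against 90.6 CPM in KO and 89.3 in WT, 67.2 in Aged and 118 in Young comparison cells. It was higher in responding cells only in Aged, so the libraries did not move together.

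Of 15 tested cytotoxic genes, none rose and 3 fell: Prf1 (perforin) by 0.67, Cst7 by 0.28 and Nkg7 by 0.21 on the log2 scale, of which Prf1 was also called in purified cells. There 5 of 14 rose, namely Gzma, Gzmb, Gzmk, Serpinb9 and Srgn, and 2 fell, Gzme and Prf1, so that the balance of calls was the opposite. Gzmb (granzyme B) was at 1147 CPM in KO and 1591.5 in WT, 1960.4 in Aged and 1228 in Young responding cells, against 499 CPM in KO and 807 in WT, 2077 in Aged and 934 in Young comparison cells. Its summed level was higher in the responding cells of KO, WT and Young and not in Aged. Its log2 fold change was 0.64 ± 0.21 (SE, 8 sums; edgeR adjusted p = 0.0801), and in purified cells Gzmb rose by 0.95. After thinning to equal depth, Gzmb was detected in 56.2% of KO and 60.1% of WT, 79.6% of Aged and 65.6% of Young responding cells. The shares in comparison cells were 30.4% in KO and 36.5% in WT, 71.6% in Aged and 54.0% in Young. The share of cells with Gzmb was thus higher in the responding cells of each library, Aged included. Gzme had the lowest value of the list, -1.76 ± 0.58 (SE, 8 sums; edgeR adjusted p = 0.0853), and Gzmg the highest, 0.65 ± 0.22 (SE, 8 sums; edgeR adjusted p = 0.0849). Among effector and residency regulators none rose and 4 of 13 fell, namely Cx3cr1, a fractalkine receptor, by 0.48, S100a4 by 0.39, the chemokine receptor gene Cxcr6 by 0.28 and Eomes by 0.23; in purified cells 2 rose, Cxcr3 by 0.25 and Cd69 by 0.48, and 3 fell, Cx3cr1, S100a4 and S100a6.

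Of 14 tested genes of proximal receptor activation, 6 rose and 2 fell with all cells, and 2 rose and 2 fell of 13 in purified cells. The 6 were Egr2, Fos, Egr1, Jun, Fosb and Dusp1, and none was called in purified cells, where Egr2 lay under the level filter, Fos gave 0.10 and Jun 0.036, against 1.01 and 0.84 with all cells. The 2 that fell were the costimulatory receptors Tnfrsf4 (OX40) by 0.82 and Tnfrsf9 (4-1BB) by 0.49, also called in purified cells. Of 15 S phase genes 3 fell, Dut, Mcm5 and Mcm3, with a median of -0.26, and in purified cells 11 of 14 fell, with -0.38. The G2 and M phase list gave 1 rise of 16, Cenpf, which was at 0.36 with all cells and at -0.016 in purified cells. In purified cells 4 of 15 fell, Cdk1, Ccnb2, Ube2c and Birc5, and Cenpe rose. Mki67, a mark of cycling cells, had a level of 84.1 to 141 CPM over the 4 libraries' responding cells, against 83.7 to 143 CPM in their comparison cells, with overlap.

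Heat shock genes gave 2 rises of 10, Bag3 and Dnajb1, neither called in purified cells, where Dnaja1 rose and Hspd1, Hspe1 and Hsp90ab1 fell. Glycolysis gave 3 rises of 15, Hk2, Hk1 and Slc2a1, of which Hk1 was called in purified cells, at 0.57, and Ldha fell there. Of 17 tested BCL2 family and death genes 4 rose: the inflammatory caspases Casp4 by 0.88 and Casp1 by 0.74, the apical caspase Casp8 by 0.81 and the survival gene Mcl1 by 0.29. Bax, the pore-forming killer, fell by 0.30. In purified cells 8 of 17 rose, among them these 4, Bcl2l11, Bak1 and Fasl, and Bax fell. Bfar, which encodes the bifunctional apoptosis regulator, was at 20.8 CPM in KO and 31.7 in WT, 29.2 in Aged and 20.8 in Young responding cells, against 22.3 CPM in KO and 31.8 in WT, 25.6 in Aged and 22.2 in Young comparison cells, with 0.016 ± 0.070 (SE, 8 sums; edgeR adjusted p = 0.905) on the log2 scale. Its level thus differed between libraries more than between responding and comparison cells.

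Of 9 NK-type receptor genes 7 passed the level filter, and of these Tyrobp, an adaptor also of myeloid cells, rose and Klre1 fell, and Tyrobp was not tested in purified cells, where Klrk1 rose and Klre1 fell. The nucleotide and metabolic interferon genes gave 3 rises of 7, Cmpk2, Nampt by 1.55 and Nt5c3 by 1.31; in purified cells Pde7a rose as well and Gpd2 fell. Of 9 tested ubiquitin and SUMO enzymes 6 rose, Trim30d the most at 2.26, followed by the giant ring finger gene Rnf213 at 2.05.

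Genes that fell did so by less. Of the 489 genes called lower, 8 fell at least 2-fold. The 15 largest falls with a mean of at least 20 CPM and the same direction in 4 of 4 libraries were Nrgn, Penk, Tff1, Cd160, Tnfrsf4, Cdkn2a, Rgs16, Prf1, Srm, Tnfsf11, Nutf2, Isyna1, Ppan, Gar1 and Pkp4, and all 15 were called lower in purified cells too. Nutf2 was near the floor in KO, at 0.533 CPM in responding against 1.48 in comparison cells. In WT it was at 0.206 against 0.850 CPM, so its direction in these libraries rests on few UMIs. Nrgn, which encodes the calmodulin-binding protein neurogranin, was at 27.2 CPM in KO and 16.6 in WT, 7.26 in Aged and 14.1 in Young responding cells, against 78.3 CPM in KO and 38.3 in WT, 34.1 in Aged and 51.0 in Young comparison cells. On the log2 scale this gave -1.62 ± 0.15 (SE, 8 sums; edgeR adjusted p = 0.000821). It was detected in 8.52% of KO and 5.82% of WT, 2.77% of Aged and 2.16% of Young responding cells, against 14.2% of KO and 10.0% of WT, 7.93% of Aged and 7.08% of Young comparison cells, so that the lower level went with fewer positive cells. Penk, the enkephalin precursor, was at 20.97 CPM in KO and 34.9 in WT, 33.1 in Aged and 3.46 in Young responding cells, against 56.2 CPM in KO and 72.1 in WT, 65.3 in Aged and 25.1 in Young comparison cells, and gave -1.36 ± 0.24 (SE, 8 sums; edgeR adjusted p = 0.0119) on the log2 scale. Up to 92% of its UMIs in a library's responding cells lay in 10 cells, so its value rests on few cells.

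By the same rule in purified cells the 15 also held Timm8a1, Rrp15, C1qbp, Nhp2 and Shmt2 in place of Rgs16, Prf1, Tnfsf11, Nutf2 and Isyna1. Srm, spermidine synthase, was at 8.98 CPM in KO and 12.1 in WT, 25.1 in Aged and 28.8 in Young responding cells, against 12.1 CPM in KO and 15.8 in WT, 53.1 in Aged and 44.4 in Young comparison cells, and fell by 0.63 on the log2 scale (1.26 in purified cells). Gar1 and Nhp2, core proteins of the H/ACA particles that modify ribosomal RNA, fell by 0.55 and 0.36, Ppan and Rrp15, which act in ribosome assembly, by 0.56 and 0.33, and the mitochondrial genes C1qbp and Shmt2 by 0.39 and 0.35. Cdkn2a, which encodes the cell cycle inhibitor p16, was at 6.04 CPM in KO and 8.95 in WT, 31.2 in Aged and 18.8 in Young responding cells, against 9.12 CPM in KO and 12.3 in WT, 63.8 in Aged and 35.3 in Young comparison cells, and fell by 0.75.

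Levels of several interferon genes across all CD3 and CD8 positive cells followed the 3 genes in steps, which is given as a description. Isg15 was at 48.5 CPM in KO and 70.6 in WT, 131 in Aged and 160.1 in Young cells with 0 UMIs of the 3 genes, at 308 CPM in KO and 406 in WT, 556 in Aged and 643 in Young cells with 3 to 4 UMIs, and at 1174 CPM in KO and 1396 in WT, 2436 in Aged and 1972 in Young cells with at least 20. It was higher in each class than in the one below, in every library. Ifit2 was at 4.76 CPM in KO and 6.23 in WT, 8.57 in Aged and 9.11 in Young cells with 0 UMIs and at 268 CPM in KO and 226 in WT, 376 in Aged and 233 in Young cells with at least 20. Irf7 was at 54.9 CPM in KO and 62.6 in WT, 173 in Aged and 212 in Young cells with 0 UMIs and at 294 CPM in KO and 305 in WT, 601 in Aged and 736 in Young cells with 5 to 9, and above that class it changed little in Young, where it was at 694 CPM in cells with at least 20 UMIs. B2m was at 4914 CPM in KO and 4798 in WT, 2531 in Aged and 2529.5 in Young cells with at least 20 UMIs, against 4007 CPM in KO and 4147 in WT, 2528 in Aged and 2625 in Young cells with 0, so that it was higher in the top class in KO and WT and not in Young, with nearly equal values in Aged. Pdcd1 showed no such order either: it was at 387 CPM in KO and 256 in WT, 589 in Aged and 186 in Young cells with at least 20 UMIs, against 320.2 CPM in KO and 281 in WT, 528 in Aged and 272 in Young cells with 0.

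**Figure D4:**
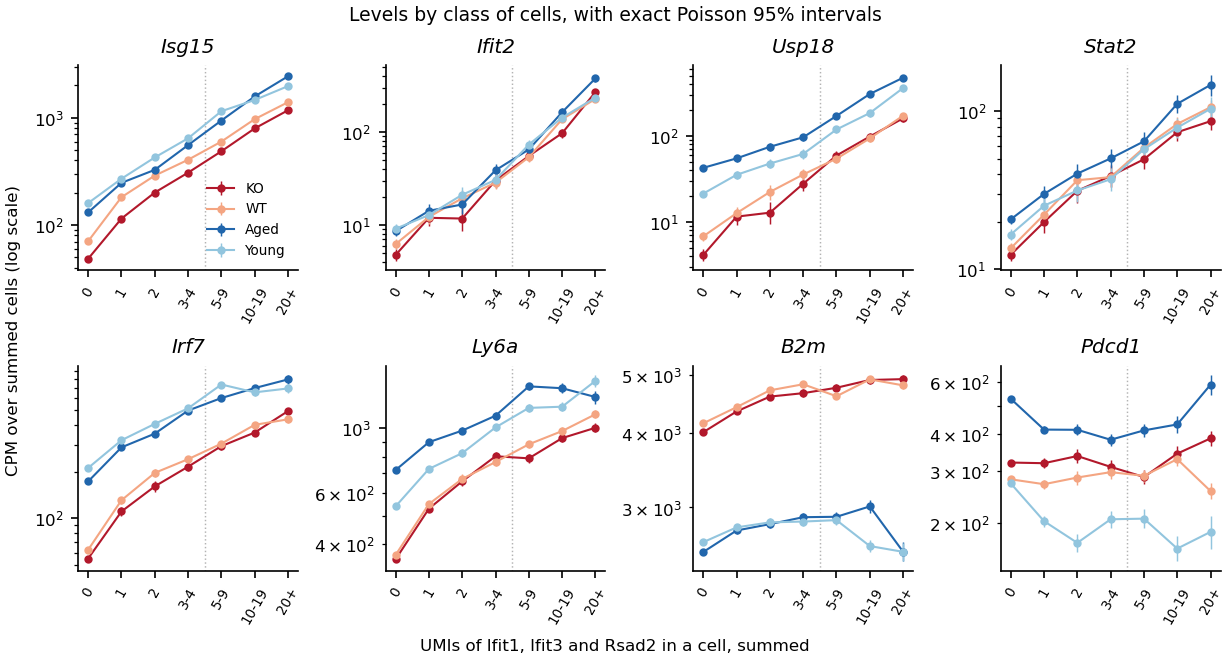
Level over summed cells (y axis, CPM on a log scale, exact Poisson 95% intervals that cover counting error only) of 8 genes by the class of cells (x axis, UMIs of Ifit1, Ifit3 and Rsad2), with 1 line per library and a dotted line at the limit of 5 UMIs. Isg15 and Usp18 are higher in each class than in the one to its left in every library, Isg15 reaching 2436 CPM in Aged, while Pdcd1 is not.

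How common the responding cells were is given for each pair with exact Clopper-Pearson 95% intervals, which cover counting error only. They made up 14.96% of CD3 and CD8 positive cells in KO (14.2 to 15.8%) and 16.3% of CD3 and CD8 positive cells in WT (15.5 to 17.1%), a ratio of 0.918 (0.856 to 0.985). They made up 10.1% of CD3 and CD8 positive cells in Aged (9.42 to 10.7%) and 8.98% of CD3 and CD8 positive cells in Young (8.42 to 9.56%), a ratio of 1.12 (1.02 to 1.23). Both differences are small beside the shares, and the mice of a group were pooled, so that no spread between mice can be set against them. In purified cells the ratio was 0.931 (0.866 to 1.0002) for KO over WT and 1.18 (1.07 to 1.30) for Aged over Young. With a limit of 10 UMIs it was 0.965 (0.876 to 1.06) for KO over WT and 1.14 (0.994 to 1.32) for Aged over Young. The interval for KO over WT thus reached 1 in both settings, and that for Aged over Young with the limit of 10 UMIs. The medians of all CD3 and CD8 positive cells were 5768 UMIs in Aged and 4510 in Young, and deeper cells pass the rule more easily. With every cell thinned to 2000 UMIs and a rule of at least 2 UMIs, the shares were 12.0% in Aged and 12.0% in Young, a ratio of 0.997, so the difference in the Aged and Young pair was not seen at equal depth. The thinned shares of the other pair were 13.8% in KO and 15.2% in WT, a ratio of 0.903; thinning left out 45 KO, 80 WT, 201 Aged and 611 Young cells with fewer UMIs.

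Within the responding cells, few interferon genes and a limited set of T cell genes differed 1.5-fold between KO and WT. With 1 library each, a gene counts as different when its CPM differ at least 1.5-fold (log2 of CPM + 1), among genes with at least 20 UMIs over both and 20 CPM in 1 library. With all cells, 47 of 5616 genes were higher in KO (0.837%) and 343 lower (6.11%). In purified cells 27 of 5243 were higher (0.515%) and 31 lower (0.591%), so that far fewer genes were lower once barcodes with other cells' markers were removed. The 6 lowest with all cells, Saa3, Gpx2, Rarres2, Bgn, Ly6d and Scgb3a1, had at most 7 UMIs in a purified library. Of the 6 highest, Arrdc3, Trat1, Lcn4, Klrc2 and Slc15a3 were higher in KO purified cells too, and Gzmc was not, with a ratio of 0.697. All values below are from purified cells, and intervals of ratios cover counting error only.

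Isg15 was at 843 CPM in KO against 1113 CPM in WT responding cells, a ratio of 0.757 (0.736 to 0.779), and the ratio in comparison cells was 0.662. Ifit1 was at 840.5 CPM in KO against 752 CPM in WT responding cells, a ratio of 1.12 (1.08 to 1.15), and Ifit3 and Rsad2, which the rule also used, gave ratios of 1.01 and 1.04. Of 25 measured antiviral effectors none differed 1.5-fold, with a median log2 ratio of -0.052, against -0.028 over all measured genes. The interferon genes that passed 1.5-fold were lower in KO: Oas2, an oligoadenylate synthetase, at a ratio of 0.581, Iigp1 at 0.586 and Phf11d at 0.617. Their ratios in comparison cells were 0.525, 0.720 and 0.625, so that Oas2 and Phf11d passed 1.5-fold there as well and Iigp1 did not.

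Among T cell genes, Gzmb was at 1256 CPM in KO against 2012 CPM in WT responding cells, a ratio of 0.624 (0.610 to 0.638), and 0.594 in comparison cells. Of 9 measured inhibitory receptors 3 were at least 1.5-fold lower in KO: Cd38, an ectoenzyme of activated cells, at 0.493, Lag3, a receptor for MHC class II, at 0.625 and Ctla4, which competes with CD28, at 0.657. In comparison cells the ratio was 0.598 for Cd38 and 0.936 for Lag3. The difference of the 2 Lag3 ratios was not tested. The transcription factor genes Maf, at 0.619, and Klf2, which supports exit from tissue, at 0.518, were also lower. Penk was at 8.40 CPM in KO against 41.0 CPM in WT responding cells, a ratio of 0.205 (0.160 to 0.261), but with all responding cells its ratio was 0.601, and in KO 84.3% of those UMIs lay in 10 cells. Fam241a had a ratio of 0.443, the sterol enzyme gene Fdps 0.540 and the histone gene H2bc4 0.529. Purified comparison cells gave 0.578 for Klf2, 0.413 for Fam241a, 0.641 for Fdps, 0.740 for H2bc4 and 0.767 for Penk. Cd38, Klf2, Fam241a and Fdps were thus at least 1.5-fold lower in KO comparison cells too, and H2bc4 and Penk were not.

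In purified cells the genes higher in KO were led by Ccl1, a ligand of CCR8, at 41.2 CPM in KO against 14.8 CPM in WT responding cells, a ratio of 2.78 (2.30 to 3.37), but with all responding cells the Ccl1 ratio was 1.12. The NK-type receptor genes Klri2 and Klrc2 followed, at ratios of 2.63 and 1.81, with Arrdc3 at 2.11, the peptide transporter gene Slc15a3 at 2.08 and the lamin gene Lmna at 1.81. Lmna went the other way with all responding cells, at a ratio of 0.712. Il2ra, the high-affinity chain of the interleukin 2 receptor, had a ratio of 1.68, Ikzf2 of 1.54, Cx3cr1 of 1.52 and Csf1 of 1.52. In comparison cells Ccl1 stood at 2.87, Klri2 at 1.73, Klrc2 at 1.84, Arrdc3 at 2.13, Slc15a3 at 1.74, Lmna at 1.66 and Il2ra at 1.65. These genes thus differed between the libraries in both kinds of cell. Of the Ccl1 UMIs in all responding cells, 85.6% in KO and 80.5% in WT lay in the 10 richest cells. Bfar was at 20.7 CPM in KO against 31.0 CPM in WT responding cells, a ratio of 0.669 (0.557 to 0.8004).

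More genes passed 1.5-fold in the pair of Aged and Young responding cells than in KO and WT. The Aged and Young responding cells also hold fewer UMIs, with wider counting error, and its part in the larger count was not tested. With all cells, 291 of 6336 genes were higher in Aged (4.59%) and 363 lower (5.73%). In purified cells 318 of 5976 were higher (5.32%) and 71 lower (1.19%). Purified comparison cells also had more such genes in this pair. There 145 of 5983 genes were higher in Aged (2.42%) and 108 lower (1.81%). In KO over WT purified comparison cells 23 of 5278 were higher (0.436%) and 16 lower (0.303%). The lowest with all cells were Scgb3a1, Gpx2, Krt15, Mmp12, Erdr1 and Fscn1, of which Erdr1 alone was among the lowest in purified cells. The highest with all cells were Gzmg, Gzmf, Ifnl2, Ifna4, Ifnl3 and Gzmd. The values below are again from purified cells.

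Isg15 was at 1473 CPM in Aged against 1784 CPM in Young responding cells, a ratio of 0.826 (0.7999 to 0.853), Rsad2 had a ratio of 0.704, Ifit3 of 0.864 and Ifit1 of 0.919. The rule used Rsad2, Ifit3 and Ifit1 at a fixed limit of UMIs, which is a higher CPM in a shallower cell. Purified responding cells had a median of 5737 UMIs in Aged and 4547 in Young. The part of depth in these ratios was not tested. With all responding cells Ifit3 and Ifit1 lay on the other side of 1, at 1.07 and 1.12. Of 25 antiviral effectors 1 was at least 1.5-fold higher, Ifi44 at 2.29, and 1 lower, Slfn5 at 0.490, with a median log2 ratio of -0.075. Of 4 IFITM genes 3 were lower in Aged: Ifitm1 was at 273 CPM in Aged against 679 CPM in Young responding cells, a ratio of 0.402 (0.377 to 0.428), Ifitm2 had a ratio of 0.451 and Ifitm3 of 0.508. Cxcl10 stood at 0.561, and Trim30c, a TRIM gene with close copies, at 0.406. The IFITM ratios in comparison cells were 0.283, 0.488 and 0.489.

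Inhibitory receptors were at least 1.5-fold higher in Aged in 5 of 11 cases: Lag3 was at 146 CPM in Aged against 44.0 CPM in Young responding cells, a ratio of 3.32 (2.83 to 3.92), and Havcr2 (TIM-3) had a ratio of 2.42, Ctla4 of 2.34, Pdcd1 of 2.04 and Entpd1 (CD39) of 1.75. Exhaustion transcription factors were higher in 5 of 11 cases, with Zbtb32 at 6.34, Maf at 2.78 and Tox at 2.25. In comparison cells Lag3 stood at 3.31, Zbtb32 at 5.08, Maf at 3.43 and Tox at 1.78, so that these genes were also higher in Aged cells without the interferon transcripts. Glycolysis genes were higher in 4 of 14 cases. Tnfrsf4 had a ratio of 2.88, the perforin gene Prf1 of 2.51 and Irf8 of 2.13. With all responding cells the ratio of Havcr2 was 1.53 and that of Irf8 0.903, on the other side of 1.

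The metallothionein genes Mt1 and Mt2 stood at 5.85 and 9.23, the NF-kappaB regulator Tnip3 at 8.09 and the chemokine gene Ccl3 at 4.27. These values held for purified cells: with all responding cells the ratios were 0.803 for Mt1, 0.900 for Mt2, 1.25 for Tnip3 and 2.09 for Ccl3. Purified comparison cells gave 3.95 for Mt1, 4.87 for Mt2, 4.62 for Tnip3 and 3.56 for Ccl3. These genes were thus also higher in Aged cells without the interferon transcripts, with Tnip3 under 20 CPM in both libraries there. The granzyme genes went both ways: Gzmf was at 32.3 CPM in Aged against 1.89 CPM in Young responding cells, a ratio of 17.1 (8.46 to 40.2), whereas Gzmc was at 13.3 CPM in Aged against 83.8 CPM in Young responding cells, a ratio of 0.159 (0.121 to 0.206). In comparison cells Gzmf had a ratio of 14.9, and Gzmc had a ratio of 3.03, on the other side of 1. The difference for Gzmc was not tested. With all responding cells the ratio was 88.7 for Gzmf and 0.392 for Gzmc. All Gzmf UMIs lay in 7 Aged and 5 Young responding cells, so that its ratio rests on few cells, whose UMIs are not independent as the interval assumes. In all responding cells the 10 richest cells held 90.8% of Gzmc UMIs in Aged and 94.5% in Young. Erdr1 was at 2.66 CPM in Aged against 114 CPM in Young responding cells, a ratio of 0.0234 (0.0127 to 0.0396), and the ubiquitin ligase gene Mid1 had a ratio of 0.0747. With all responding cells the ratios were 0.0578 for Erdr1 and 0.250 for Mid1. Purified comparison cells gave 0.0174 for Erdr1 and 0.0556 for Mid1, so both genes were also lower in Aged cells without the interferon transcripts. Slc15a2, a peptide transporter gene, stood at 0.356 (0.576 in comparison cells) and Bfar at 1.28 (1.17 in comparison cells).

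Interferon transcripts themselves were concentrated in a few Aged cells. Over 20 type I and type III interferon genes, Aged responding cells held 1061 UMIs in 25 of 830 cells, Young 61 UMIs in 6 of 880, KO 7 in 2 of 1220 and WT 3 in 3 of 1461. Comparison cells held 8 UMIs in KO and 19 in WT, 11 in Aged and 8 in Young. In Aged, 17 responding cells had at least 5 such UMIs and the 3 richest held 665. Of the 17, 14 had interferon alpha UMIs, 11 had Ifnb1 and 7 had interferon lambda. Among the purified cells 12 remained, but that filter did not use the plasmacytoid dendritic cell markers. Over all kept barcodes, also those without CD3 or CD8 UMIs, the UMIs came to 1226 in 51 Aged and 192 in 22 Young barcodes. In KO they came to 17 in 10 barcodes and in WT to 31 in 22. In purified responding cells the UMIs came to 438 in Aged and 30 in Young. Among the 3 richest Aged cells 2 were removed, which held 32 and 18 UMIs of dendritic cell markers, as was another cell with 16. The third richest, with 124 interferon UMIs, was kept as purified but held 9 dendritic marker UMIs, just under the limit of 10. The 17 had a median of 11 CD3 UMIs (range 2 to 52) and 10 CD8 UMIs (range 4 to 53), against medians of 17 and 11 over all Aged responding cells. They were also deeper, with a median of 11764 UMIs against 6020.5, and held a median of 41 UMIs of Ifit1, Ifit3 and Rsad2. Close copies among the interferon alpha genes may share reads, and the part of doublets or of a second cell type in these barcodes was not tested.

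**Figure D5:**
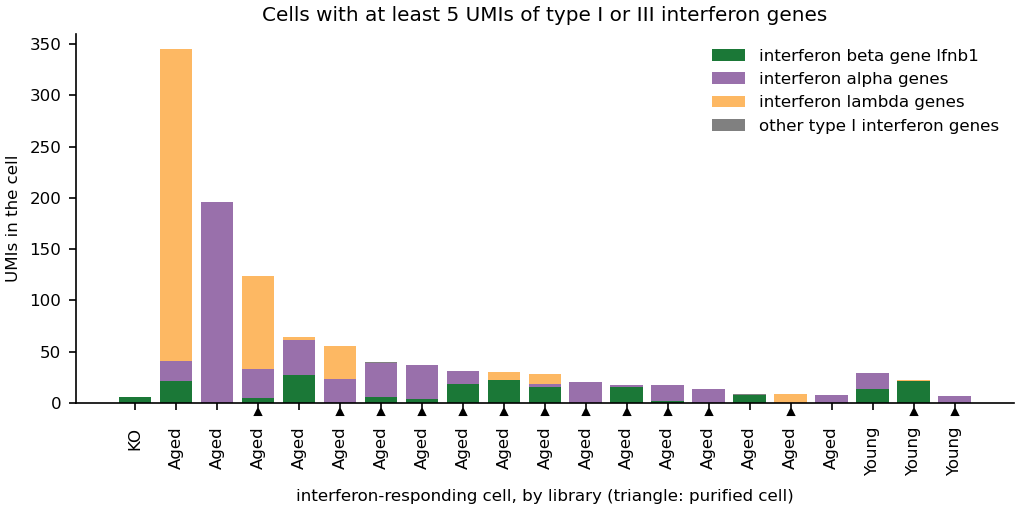
UMIs of interferon beta, alpha, lambda and other type I interferon genes (y axis, stacked) in each responding cell with at least 5 such UMIs (x axis, 1 bar per cell, named by library; a triangle marks a purified cell). Of the 21 cells 17 are Aged, 3 Young and 1 KO, and the richest Aged cell holds 345 UMIs.

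T cell receptor segments served to ask whether responding cells were spread over many V beta segments. Segments were counted and not clones, so clonal families were not resolved. A single richest V beta segment was seen in 18.7% of responding cells in KO and 18.2% in WT, 92.9% in Aged and 90.8% in Young, and the kits differ between these pairs. Responding cells used 19 segments in KO and 19 in WT, 21 in Aged and 19 in Young. Over segments with at least 50 cells, the share of responding cells ranged between 9.22% and 22.8% in KO (11 segments), 10.3% and 24.4% in WT (11), 2.500% and 14.1% in Aged (17) and 5.04% and 13.0% in Young (19). Trbv1 had the highest share in KO, with an exact interval of 12.7 to 35.8%, and in WT, with 17.0 to 33.1%, and the third highest in Aged, at 13.2% (11.1 to 15.6%). The KO value rests on 13 of 57 cells, and its interval covers the library's share of 14.96%. In Young it lay at 7.47% (4.79 to 10.99%), below the median of 8.23% over segments. The interval left out the library's share for 1 segment in KO and 3 in WT, 4 in Aged and 3 in Young. Among these in Aged, besides Trbv1, Trbv14 lay at 14.1% (10.3 to 18.7%), Trbv12-1 at 7.82% (6.68 to 9.08%) and Trbv30 at 2.5% (0.304 to 8.74%). In Young, Trbv26 lay at 12.2% (10.6 to 13.9%) and Trbv19 at 5.04% (3.64 to 6.78%). The intervals were not adjusted for the number of segments. Responding cells were found in every segment of that size.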

How the data were processed

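Single-cell RNA libraries of sorted tumour-infiltrating CD8 T cells were read from the deposited UMI counts per gene and barcode, which the authors made with Cell Ranger 6.1.1 (KO, WT) and 7.1.0 (Aged, Young) per the file headers; per the submitters' processing notes the build was mm10 and the tools were Seurat 3.2.3 and Cell Ranger 6.0.0. Gene names are those of the files. Barcodes under 1000 UMIs or 500 genes, or with over 10% of UMIs from mitochondrial genes, were left out. No doublet caller was run, and leaving out the 8% deepest cells was an alternative. The members and gene lists were chosen with earlier results of these data known.

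UMIs were summed per library over responding and over comparison cells, without Ifit1, Ifit3 and Rsad2, and the 8 sums were tested with edgeR 4.0.16 in R 4.3.3 (quasi-likelihood test, TMM scaling, mean of at least 10 CPM, Benjamini-Hochberg adjusted p under 0.05). The library was a block, since both sums of a library come from the same 3 pooled mice, which left 3 residual degrees of freedom; the common biological coefficient of variation was 10.6%. The fit was tested on simulated data with known changes. Alternatives were DESeq2 1.42.0, other scaling, filters, limits on the 3 genes, matched depth, leaving out each library, and, chosen after seeing the data, purified cells and each pair of libraries alone.

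Between libraries, CPM were compared as log2 ratios of CPM + 1, with no test. Counts were thinned at random to 2000 UMIs per cell where shares were compared at equal depth. Genes were named as the 20 largest rises and 15 largest falls (mean of at least 20 CPM, same direction in 4 of 4 libraries), the highest and lowest of each list, and the 6 highest and 6 lowest genes of a pair with at least 50 UMIs; the same rule for purified cells, and other genes named, were chosen after values were seen. Values of a few genes that the rule or the lists hold are not reported here. Intervals (95%) are exact and cover counting error only. Python 3.11.15 with numpy 2.4.6, scipy 1.17.1, pandas 2.3.3 and matplotlib 3.10.9 was used.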

Additional observations from a re-analysis of the deposited data

Results flagged for a closer look

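The log2 fold change of responding over comparison cells was compared between the 2 pairs of libraries, as the value in KO and WT minus the value in Aged and Young (edgeR interaction term, Benjamini-Hochberg adjusted over all genes). With all cells 21 of 7613 genes passed, and in purified cells, where 7331 genes were tested, 224 passed. The 2 libraries of a pair served as its replicates although they are different groups, and few residual degrees of freedom remained. Kits, hosts and donors differ between the pairs, so their parts cannot be told apart. Named genes that passed are given here.

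With all cells, the difference was -3.253 for Sox9 (edgeR adjusted p = 0.0269) and -1.57 for Thbs1 (edgeR adjusted p = 0.0498), both of which lay under the level filter in purified cells.

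In purified cells, the interferon genes among these named genes mostly had the larger fold change in KO and WT. The difference was 1.188 for Usp18 (edgeR adjusted p = 7.33e-05), 1.048 for Ifit3b (edgeR adjusted p = 9.9e-05), 0.7884 for Phf11a, 0.786 for Ifi211, 0.7754 for Ifit1bl1, 0.6183 for Parp12, 0.6041 for Cmpk2, 0.5172 for Ifi208, 0.4054 for Ly6c2, 0.4025 for Isg15, 0.4014 for Trim30d and 0.3452 for Ifitm3. Iigp1 went the other way, at -0.6319, so that its fold change was larger in Aged and Young. Irf8 had a difference of 0.578.

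Among T cell genes in purified cells, the difference was 2.049 for the granzyme gene Gzme (edgeR adjusted p = 0.000846), 0.8131 for the lactate transporter gene Slc16a3, 0.6794 for Ikzf2 and 0.4198 for Tnfrsf4. It was -1.635 for Ccl1 (edgeR adjusted p = 0.00133) and -0.7719 for Dapl1.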

How the results depend on the processing

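With all cells, edgeR called 813 genes higher and 489 lower in responding cells. The higher count was 2111 with no filter on low counts, 138 with no replicate block, and 485 to 735 when 1 library was left out. The lower count was 807 with DESeq2, 1557 with no filter, 2 with no replicate block, 759 with comparison cells matched on UMI totals, 962 without cells with other cell type markers, 1079 without the 8% deepest cells, 1184 in purified cells, 235 in KO and WT alone, 143 in Aged and Young alone, and 119 to 261 when 1 library was left out. The log2 ratio of the share in Aged over Young was 0.16, but -0.0039 and 0.012 at 2000 UMIs with limits of 2 and 3. For KO over WT, 47 genes were 1.5-fold higher, against 27 with a pseudocount of 10 CPM, 224 with no filter and 27 in purified cells; 343 were lower, against 2100 with no filter, 39 without other-marker cells and 31 in purified cells. For Aged over Young, 291 were higher, against 148 with a pseudocount of 10 CPM, 1167 with no filter, and 174 and 654 with limits of 3 and 10 UMIs; 363 were lower, against 1892 with no filter, 78 without other-marker cells and 71 in purified cells. The cause was not tested. Single genes changed sign: Rrm2 gave -0.69 without other-marker cells, -0.37 without the 8% deepest cells and -0.53 in purified cells, Cenpf -0.44 and -0.016 without other-marker cells and in purified cells, Hk2 -0.036 and -0.035 without other-marker cells and without the deepest cells, and Ifngr1 0.12 in purified cells. Depth limits single genes between libraries, and 1 library per group leaves the spread between mice unmeasured.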
